A study of Mus musculus with 2 samples.

Results

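The 9 genes described here, Mbp, Mobp, Mog, Mag, Mal, Cnp, Ermn, Opalin and Cldn11, encode proteins of the myelin sheath made by mature oligodendrocytes. They were taken by gene symbol from the 23284 symbols that both expression tables list. Each of the 9 had a single locus. Gene expression had been measured by RNA sequencing in medulloblastomas, tumours of the cerebellum, from 2 genetically engineered mouse genotypes with 1 library each. Both genotypes carried CAG-CreER, a tamoxifen-inducible Cre recombinase under a broadly active promoter, and Rosa26-SmoM2, an activated form of the Hedgehog signal transducer Smoothened. Both received 10 tamoxifen injections, 1 every other day. They differed at Brg1 (encoded by Smarca4, the motor subunit of BAF chromatin remodellers), which was Brg1+/+ in the library called wild type and Brg1F/F, with alleles that Cre can recombine, in the library called knockout. CAG-CreER is not limited to tumour cells, so the floxed and lox-stop alleles that each animal carries could also have recombined in its oligodendrocytes. Total RNA came from dissected tumour tissue, and the labels give no age of the animals and do not say whether tissue was pooled.

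Oligodendrocytes arise from dividing precursors that carry the growth factor receptor Pdgfra. As they stop dividing they pass through a short premyelinating stage, and then switch on the myelin genes under the transcription factors Sox10, Myrf and Olig2. In the cerebellum they wrap the axons of the white matter, whereas granule neuron precursors, the source of Hedgehog-type medulloblastoma, give rise to neurons. Dissected tumour tissue can hold white matter and oligodendrocytes beside tumour cells.

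Smarca4 itself had 14.05 FPKM in the wild-type tumour and 3.76 FPKM in the knockout tumour. FPKM is the number of fragments scaled to transcript length and library size, so levels can be compared between genes. Differences are given as the FPKM ratio and as the log2 ratio, log2((knockout FPKM + 1)/(wild-type FPKM + 1)), whose added 1 FPKM shrinks the differences of low genes. A gene is called 2-fold higher from a log2 ratio of 1 upwards, and 2-fold lower from -1 downwards. Each genotype has 1 library, so values carry no replicate error and no p-value, and genotype, animal and dissection cannot be told apart. The depth of the libraries is unknown. Xist had 268.3 FPKM in wild type and 0.369 FPKM in knockout. Xist is expressed from the inactive X chromosome of females, so sex and genotype cannot be told apart here either. The share of small RNA genes in all FPKM was 14.1% in wild type and 7.12% in knockout. Among symbols past the 2-fold rule 65.0% were higher in the knockout library on the deposited scale, and 74.8% with both libraries scaled to an equal FPKM sum.

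The promoters are shown first, because the factors named above bind short sequences that can be read in such windows. Whether these factors had a part in the levels of the members was not tested. RefSeq (GRCm38.p6, the same assembly as mm10) gave a window of 250 bases before and 50 bases after the start site for 8 of the 9 members, all but Mbp. The 250 bases before the start are printed for 4 members, 5′ to 3′ on the strand of the gene, with motif matches in capitals. Mobp and Cnp lie on the plus strand and Mog and Mag on the minus strand. The Mobp stretch (chr9:120149492-120149741) is shown for its repeated Sox core, and those of Mog (chr17:37023399-37023648), Mag (chr7:30914864-30915113) and Cnp (chr11:100574689-100574938) for their match to the Myrf consensus. Of the 3 windows that RefSeq gives for Mag, the one nearest to the start in the files was taken, 31 bases from it.
Mobp: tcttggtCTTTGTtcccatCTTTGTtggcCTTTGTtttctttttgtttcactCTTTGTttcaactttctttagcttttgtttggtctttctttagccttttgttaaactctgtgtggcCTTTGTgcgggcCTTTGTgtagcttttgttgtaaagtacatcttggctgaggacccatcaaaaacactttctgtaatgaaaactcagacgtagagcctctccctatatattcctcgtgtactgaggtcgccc
Mog: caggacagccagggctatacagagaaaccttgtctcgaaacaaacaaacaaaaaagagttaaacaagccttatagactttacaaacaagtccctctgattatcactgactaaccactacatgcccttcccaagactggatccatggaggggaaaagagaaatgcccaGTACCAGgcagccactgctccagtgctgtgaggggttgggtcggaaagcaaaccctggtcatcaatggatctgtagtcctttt
Mag: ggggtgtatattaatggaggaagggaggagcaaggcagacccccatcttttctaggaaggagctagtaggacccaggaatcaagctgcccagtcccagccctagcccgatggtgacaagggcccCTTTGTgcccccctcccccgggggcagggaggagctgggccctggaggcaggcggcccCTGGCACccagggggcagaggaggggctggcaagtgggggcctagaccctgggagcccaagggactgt
Cnp: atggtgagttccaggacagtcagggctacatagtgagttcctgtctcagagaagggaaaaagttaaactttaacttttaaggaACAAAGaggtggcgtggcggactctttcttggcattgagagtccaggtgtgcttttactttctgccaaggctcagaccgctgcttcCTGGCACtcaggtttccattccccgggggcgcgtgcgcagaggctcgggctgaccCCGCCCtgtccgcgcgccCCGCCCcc

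The motifs searched on both strands were the Sox cores ACAAAG and ACAATG, the Myrf consensus as CTGGCAC and CTGGTAC, the E-boxes CAGATG and CAGCTG, the TATA box TATAAA and the GC box GGGCGG. None of them contains another. A match on the opposite strand appears above as CTTTGT for the Sox core in Mobp and Mag. In Mog the second Myrf form appears in reverse, and in Cnp the GC box does, as CCGCCC. A Myrf form was found in 4 of the 8 windows, those of Mog, Mag, Cnp and Opalin, against 7.1% of all 32851 promoter windows of this length. In Opalin it began 36 bases after the start, and in Mog, Mag and Cnp it began 83, 68 and 81 bases before it. ACAAAG was in 4 of the 8 windows, those of Mobp, Mag, Cnp and Opalin, against 18.7% of all windows. The Mobp window held 6 copies, all as CTTTGT, and it was the 1 window of the 32851 with at least that many. ACAATG was in 1 of the 8 windows, that of Ermn (12.6% of all windows). Each E-box was in 1 of 8 as well, the Opalin window (17.2% of all windows for the first and 16.3% for the second E-box). The GC box was in 2 of 8, Cnp and Cldn11, against 35.7% of all windows, and the TATA box in 0 of 8, against 13.6%. The Mal window held none of the motifs searched. The windows of the members had a median GC content of 52.6%, and all windows 52.7%. These matches describe the letters in the windows. Binding was not measured in these files, and 8 windows are few.

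**Figure D1:**
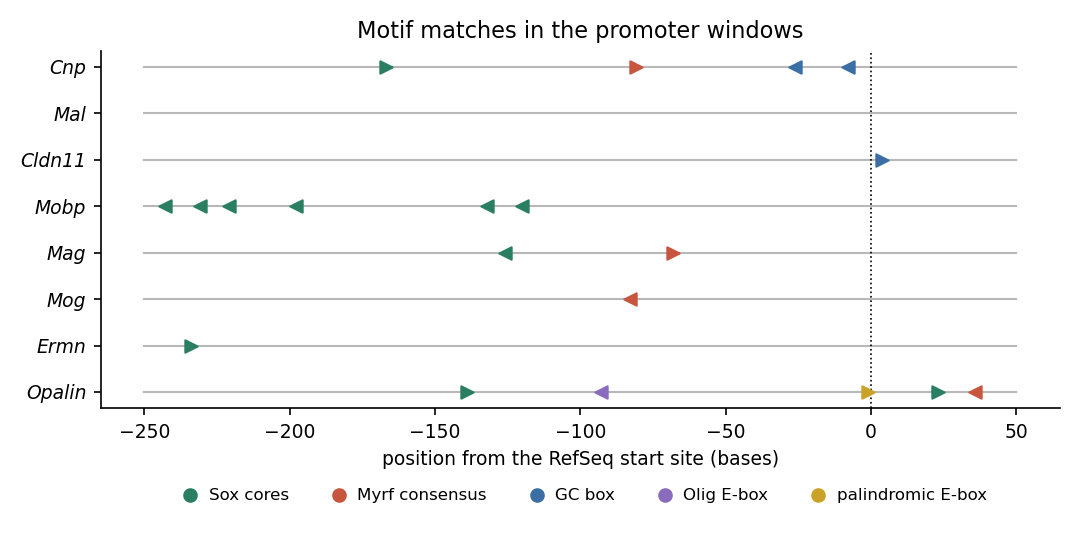
Motif matches in the promoter windows of 8 myelin genes, by distance in bases from the RefSeq start site (dotted line). Triangles pointing right are matches on the strand of the gene and those pointing left on the opposite strand; Mobp shows 6 Sox cores, and Mog, Mag, Cnp and Opalin each show 1 Myrf match.

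All 9 myelin genes had a higher FPKM in the knockout library than in the wild-type library, by 3.36-fold (Cldn11) to 51.8-fold (Mobp) on the FPKM scale. By the log2 ratio 8 of the 9 were at least 2-fold higher and 0 lower, where 9.01% of all 23746 records were higher and 4.85% lower. At least 4-fold higher were 6 of the 9, against 2.33% of all records. Records under 1 FPKM in both libraries cannot reach these rules, which lowers the shares over all records. The median log2 ratio of the 9 was 2.82, and that of all records 0.0, many of which are not expressed. Summed over the 9 genes, FPKM was 57.1 in the wild-type and 565.8 in the knockout library, a 9.91-fold difference. That is 0.0147% of the FPKM sum of the wild-type library and 0.165% of that of the knockout library. In bulk tissue a larger number of oligodendrocytes and more myelin RNA per oligodendrocyte cannot be told apart.

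A level of at least 1 FPKM in at least 1 library was reached by 8 of the 9 members, Opalin being under it in both. Mobp, Mog, Mag and Ermn passed only through the knockout library, where they are high. Records that pass that way lean upwards by construction: 55.5% of the 1273 such records were at least 2-fold higher. The other 4, Mbp, Cnp, Cldn11 and Mal, had at least 1 FPKM already in the wild-type library, and 4 of 4 were at least 2-fold higher, where 11.9% of the 12006 records with that level were. Among the 13279 records with at least 1 FPKM in 1 library, 16.1% were at least 2-fold higher and the median log2 ratio was 0.09.

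**Figure D2:**
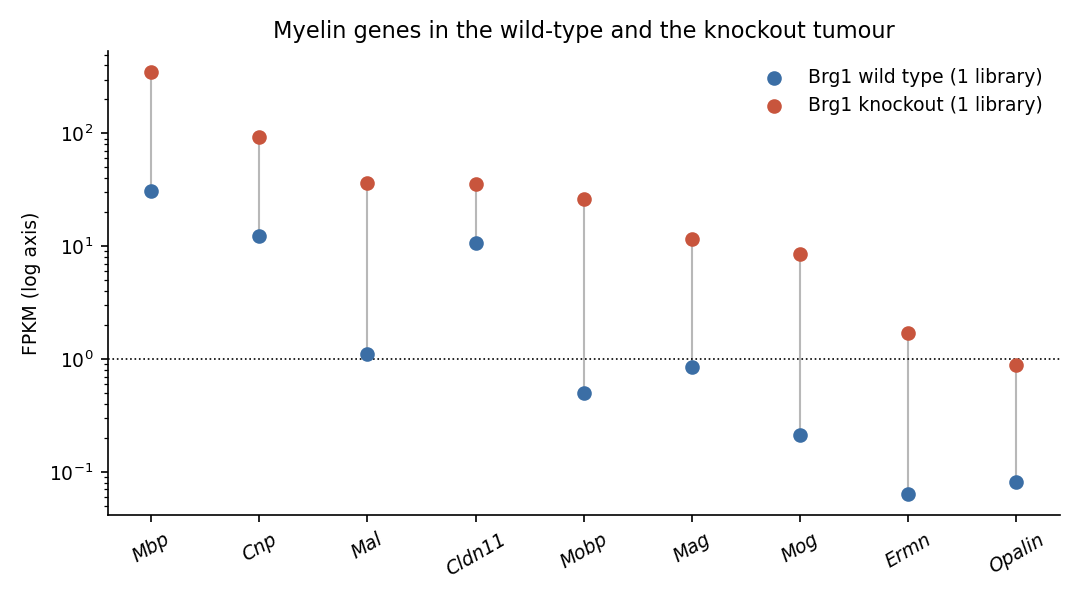
FPKM (log axis) of the 9 myelin genes in the wild-type library (blue) and the knockout library (red), 1 library each, with a grey line joining the 2 values of a gene and a dotted line at 1 FPKM. The red point lies above the blue point for every gene, and the line is shortest for Cldn11 (10.7 and 35.95 FPKM).

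Among the proteins of compact myelin, Mbp encodes myelin basic protein, which holds the inner faces of the membrane together (chromosome 18, 82475123 to 82585637, mm10). Mbp had 31.1 FPKM in the wild-type tumour and 351.1 FPKM in the knockout tumour, an 11.3-fold difference (log2 ratio 3.45). It was the most abundant member in both libraries and made up 54.6% of the summed FPKM of the 9 in the wild-type and 62.1% in the knockout library. The Mbp record joins 3 start sites in the files. The gene also gives rise to the longer golli transcripts, which other cells make, and the value per gene cannot separate them. Mobp encodes a small basic protein of compact central myelin (chromosome 9, 120149742 to 120176091). It had 0.505 FPKM in wild type and 26.1 FPKM in knockout, with deposited bounds of 0.341 to 0.669 and 25.1 to 27.5 FPKM. Its log2 ratio of 4.17 was the highest of the 9 and ranked at place 61 among the 13279 expressed records. Mal encodes a small lipid-associated membrane protein that takes part in sorting to the myelin membrane (chromosome 2, 127633226 to 127656695). Mal had 1.10 and 36.2 FPKM, a 33.0-fold difference (log2 ratio 4.15), which put it at place 63.

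Cldn11 encodes the claudin of the tight junctions that run through central myelin (chromosome 3, 31149920 to 31164326). It had 10.7 FPKM in wild type and 35.95 FPKM in knockout, and its 3.36-fold difference was the smallest FPKM ratio of the 9 (log2 ratio 1.66). Both Cldn11 values lay above their deposited bounds, which ran from 6.30 to 7.97 FPKM in the wild-type and from 22.3 to 25.2 FPKM in the knockout library. From the midpoints of the bounds its log2 ratio was 1.61, so the difference hardly moved. Such a mismatch is common in these tables: the FPKM of 49.0% of expressed records in the wild-type and 51.2% in the knockout library lay outside their own bounds. Of the 9 members, 8 lay within their bounds in the wild-type and 5 in the knockout library. Besides Cldn11, the knockout values of Mbp, Mag and Ermn lay outside, each under its lower bound. Their bounds were 352.4 to 361.3, 12.9 to 14.8 and 1.99 to 2.61 FPKM.

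Cnp encodes CNPase, an enzyme that keeps cytoplasmic channels open in the sheath and appears early in the lineage (chromosome 11, 100574939 to 100581739). Cnp had 12.4 FPKM in wild type and 93.6 FPKM in knockout, a 7.54-fold difference (log2 ratio 2.82). Its share of the summed FPKM of the 9 was 21.8% in the wild-type and 16.5% in the knockout library. Ermn encodes ermin, a cytoskeletal protein of mature oligodendrocytes (chromosome 2, 58045115 to 58052752). Ermn had 0.0634 and 1.70 FPKM, and its 26.7-fold FPKM ratio corresponds to a log2 ratio of only 1.34, because the wild-type level is far below the added 1 FPKM. The annotation places Galnt5 over part of Ermn on the opposite strand. Galnt5 stood at 0 in wild type and had 0.00476 FPKM in the knockout library.

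Of the members on the surface of the sheath, Mag encodes an adhesion protein of the membrane facing the axon (chromosome 7, 30899183 to 30914832). Mag had 0.854 FPKM in wild type and 11.6 FPKM in knockout, 13.6-fold apart (log2 ratio 2.76). Mog encodes an immunoglobulin family protein of the outermost layer and appears late in myelination (chromosome 17, 37010740 to 37023398). Mog had 0.211 and 8.59 FPKM, with bounds of 0.0993 to 0.331 and 7.71 to 9.48 FPKM, so the 2 intervals were far apart. Its FPKM ratio of 40.7 was the second highest of the 9, and its log2 ratio was 2.99. Opalin encodes a glycoprotein found near the paranodal loops (chromosome 19, 41063420 to 41077113). Opalin had 0.0819 FPKM in wild type and 0.877 FPKM in knockout, and stayed inside the 2-fold rule (log2 ratio 0.79). Its bounds, from 0 to 0.253 and from 0.617 to 1.54 FPKM, did not overlap, but at these levels the depth needed to place the ratio is unknown.

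The order of the members was much the same in both libraries. In the wild-type library it ran Mbp, Cnp, Cldn11, Mal, Mag, Mobp, Mog, Opalin and Ermn from high to low. In the knockout library Mal came before Cldn11, Mobp before Mag, and Ermn before Opalin. Mal and Cldn11 were next to each other there at 36.2 and 35.95 FPKM, and without replicates their order cannot be told. The 3 members most abundant in the wild-type library, Mbp, Cnp and Cldn11, had FPKM ratios of 11.3, 7.54 and 3.36. The 6 less abundant members had ratios from 10.7 (Opalin) to 51.8. A low wild-type level gives an uncertain ratio: computed from the deposited bounds, the ratio of Mog runs from 23.3 to 95.4. How the bounds arose is not given, and this range holds no variation between animals.

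**Figure D3:**
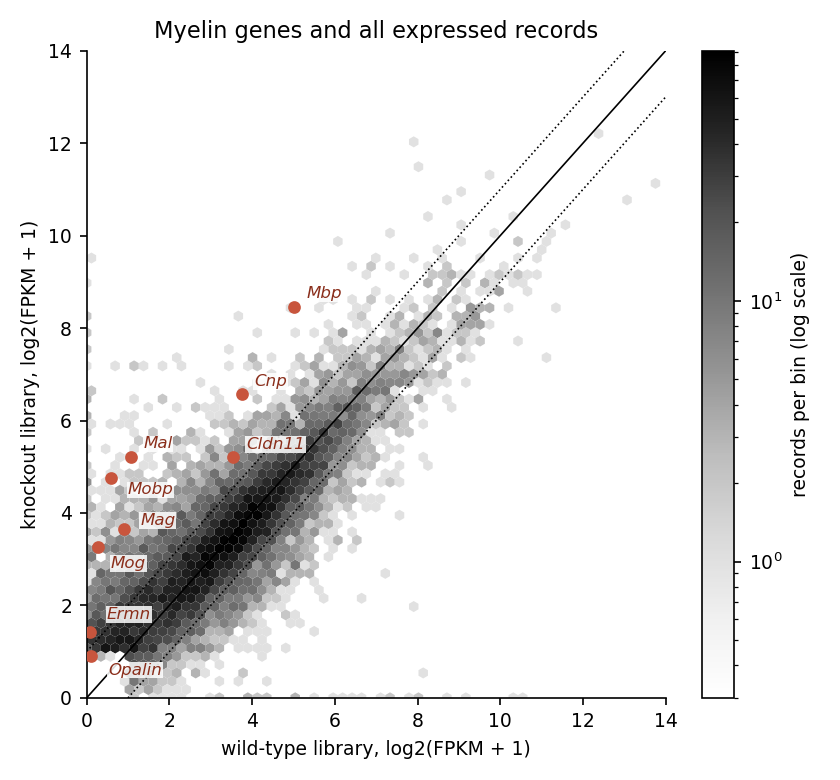
Level of each record with at least 1 FPKM in 1 library, as log2(FPKM + 1) in the wild-type library (x axis) and the knockout library (y axis); shading gives the number of records per bin, and red points are the 9 myelin genes. The solid line marks equal levels and the dotted lines a 2-fold difference. Opalin lies inside the dotted lines, with a log2 ratio of 0.79, and the other members lie above the upper line.

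The expressed records nearest to the members on the chromosome passed the 2-fold rule about as often as expressed records in general. The nearest expressed record on each side was taken for every member, 18 in all. Their distances ran from 11 bases (Zfp57 and Mog) to 674 kb (Gpd2 and Ermn). Records under 1 FPKM in both libraries were passed over, so such records can lie between. Of these 14 lay within the rule, 3 were at least 2-fold higher and 1 lower, where 16.1% of expressed records were higher and 8.67% lower. Their median log2 ratio was 0.12. All 9 members had a higher log2 ratio than both of their neighbours. The members were chosen with earlier results of these data known, so this count is no test. Cnp lies 1.1 kb from Dnajc7, a chaperone gene, which had 40.8 FPKM in wild type and 50.3 FPKM in knockout (log2 ratio 0.30). Mbp has Zfp236 at 7.96 kb, with 6.07 and 4.59 FPKM (log2 ratio -0.34), and Galr1 on its other side with 3.97 and 2.77 FPKM. Zfp57, at 11 bases from Mog, had 34.1 and 24.6 FPKM (log2 ratio -0.45). The 3 higher neighbours were Gabbr1 (log2 ratio 1.20), Sbsn (1.32) and Gpd2 (1.004, at the cutoff). They lay 22.6 kb from Mog, 143 kb from Mag and 674 kb from Ermn. Rpsa, 17.4 kb from Mobp, was lower (-1.16). None of the 9 members overlapped another record of the files.

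**Figure D4:**
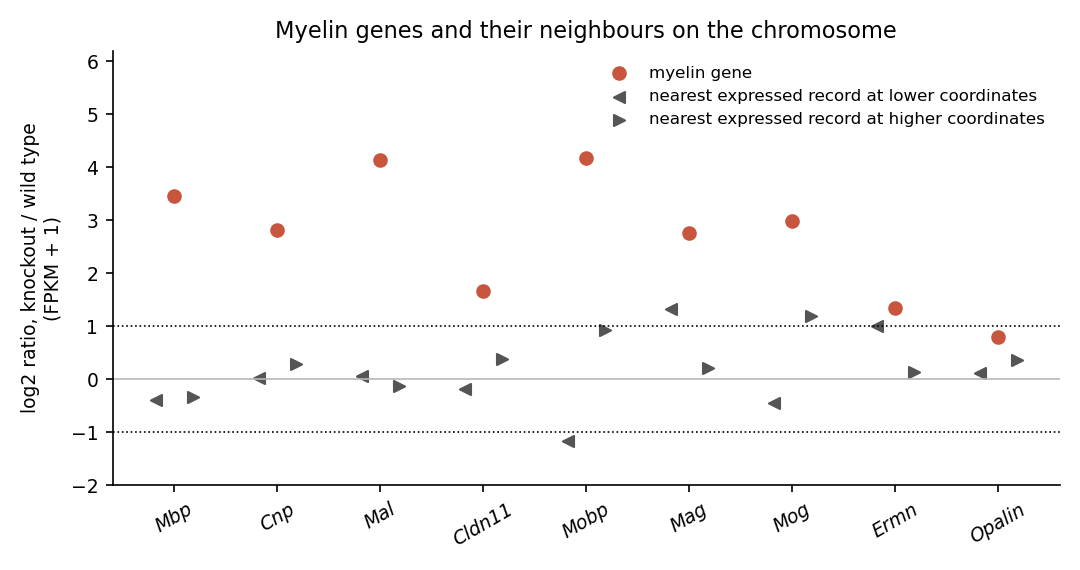
Log2 ratio of each myelin gene (red) and of the nearest expressed record at lower coordinates (triangle pointing left) and at higher coordinates (triangle pointing right). Dotted lines mark the 2-fold rule; the neighbours lie between -1.16 and 1.32, each below the red point of its member.

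Many other genes of mature oligodendrocytes were higher as well. Of 23 listed, 21 were expressed, and 13 of these were at least 2-fold higher and 1 lower (16.1% and 8.67% of all expressed records), with a median log2 ratio of 1.37. With FPKM scaled to an equal sum 0 were lower. Of the 13, 5 passed the filter through the knockout library alone (Hapln2, Aspa, Gjb1, Klk6 and S1pr5). Among the 16 genes with at least 1 FPKM in wild type 8 were higher, where 11.9% of such records were. Gjc3, a gap junction gene of glia, had 7.78 and 47.8 FPKM (log2 ratio 2.47). Tspan2, a tetraspanin gene of myelin, had 3.30 and 21.0 FPKM (log2 ratio 2.35). Apod, which fibroblasts of the meninges also express, had 122.4 and 712.7 FPKM (log2 ratio 2.53). Gsn, which encodes the actin-severing protein gelsolin, had 4.91 and 23.5 FPKM (log2 ratio 2.05). The 1 lower gene was Anln (14.98 and 6.60 FPKM, log2 ratio -1.07), which encodes anillin, a protein of cell division that also acts with septins in myelin.

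Enzymes of myelin lipids had smaller log2 ratios than most of the members. Of the 7 found, 2 were at least 2-fold higher and 0 lower (16.1% and 8.67% of all expressed records), and the median log2 ratio was 0.64. Fa2h, which hydroxylates the fatty acids of galactolipids, passed the filter through the knockout library alone, with 0.596 and 5.27 FPKM (log2 ratio 1.98). Ugt8a, which makes galactosylceramide, had 2.85 and 8.19 FPKM (log2 ratio 1.25). Both Ugt8a values lay above their bounds of 1.43 to 2.13 and 4.18 to 5.14 FPKM. From the midpoints of the bounds 2 of the 7 enzymes were again at least 2-fold higher. The other 5 lay between 0.29 and 0.72 on the log2 scale, among them Gal3st1, which makes sulfatide (1.42 and 2.99 FPKM).

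Genes of the earlier stages showed a mixed picture. Of 8 genes of newly formed oligodendrocytes 4 were at least 2-fold higher and 0 lower (16.1% and 8.67% of all expressed records), with a median log2 ratio of 1.01 (0.93 after centring on the median of all genes). Among the 5 with at least 1 FPKM in wild type 3 were higher, where 11.9% of such records were. Bcas1, a gene of the premyelinating stage, had 30.2 and 24.8 FPKM (log2 ratio -0.27), but its wild-type value lay under its bounds of 79.6 to 85.1 FPKM. From the midpoints of the bounds its log2 ratio was -1.68, and 1 of the 8 was then lower. Enpp6, a phosphodiesterase gene of that stage, had 0.384 and 3.87 FPKM, and Tns3 had 4.86 and 22.6 FPKM. Gpr17, a receptor gene of the same stage, had 3.62 and 14.4 FPKM, and Neu4 had 1.54 and 4.28 FPKM (log2 ratio 1.06, but 0.97 after that centring). Of 9 precursor genes 1 was higher and 2 lower, with a median of 0.03. Pdgfra had 45.3 FPKM in wild type and 15.3 FPKM in knockout (log2 ratio -1.51). C1ql1, a secreted protein gene of precursors that some neurons also express, had 154.2 and 24.3 FPKM (log2 ratio -2.62). Ptprz1, a phosphatase gene that astrocytes share, went the other way with 21.0 and 51.3 FPKM (log2 ratio 1.25). In the wild-type library the level of Pdgfra was 1.46 times that of Mbp, and in the knockout library 0.0435 times.

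Of 13 transcription factors of the lineage 3 were at least 2-fold higher and 2 lower (16.1% and 8.67% of all expressed records), with a median log2 ratio of 0.34. Of the 3, Myrf and Nkx6-2 passed the filter through the knockout library alone. Myrf (listed under its older name Gm98), which switches on myelin genes in postmitotic oligodendrocytes, had 0.332 FPKM in wild type and 2.92 FPKM in knockout (log2 ratio 1.56). Nkx6-2, a homeobox factor of mature oligodendrocytes, had 0.213 and 2.03 FPKM (log2 ratio 1.32). Myt1, which precursors and young neurons express, had 2.96 and 8.86 FPKM (log2 ratio 1.32). Olig2, which is needed from the precursor stage on, was lower with 42.0 and 9.23 FPKM (log2 ratio -2.07), and so was Olig1 with 89.0 and 35.6 FPKM (log2 ratio -1.30). Both Olig1 values lay above their bounds of 53.3 to 57.7 and 27.3 to 30.3 FPKM, and from the midpoints its log2 ratio was -0.92, within the 2-fold rule. Sox10, which marks the whole lineage, had 3.98 and 4.92 FPKM (log2 ratio 0.25). Both Sox10 values lay under their bounds of 4.58 to 6.07 and 7.28 to 8.68 FPKM. Of 8 genes that hold back differentiation 3 were higher and 2 lower (median 0.43). Gpr17, 1 of these 3, is also counted among the genes of newly formed oligodendrocytes. Hes5, a Notch target, had 17.6 and 0.984 FPKM (log2 ratio -3.23), and Id4, which astrocytes also express, had 3.13 and 35.8 FPKM (log2 ratio 3.16).

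**Figure D5:**
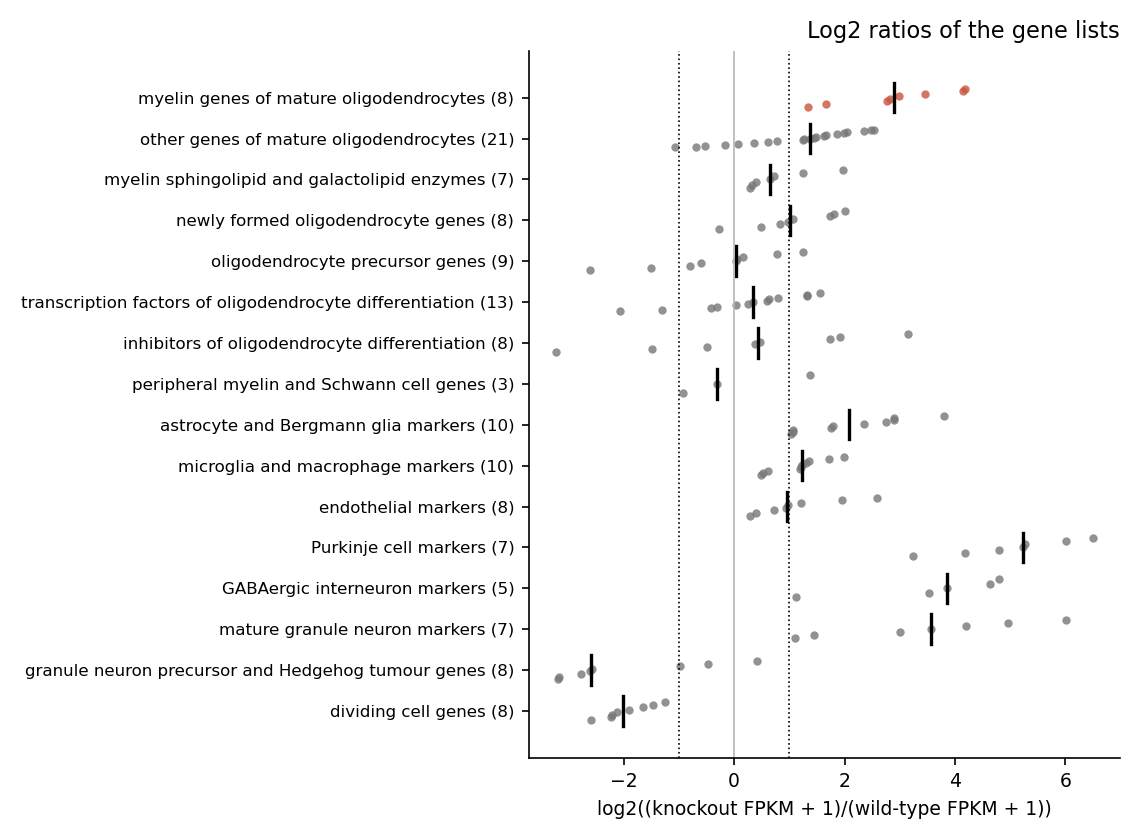
Log2 ratio of every expressed gene in the myelin list (red) and in 15 other lists (grey), with the number of genes in brackets and a black bar at each median; dotted lines mark the 2-fold rule. The medians run from 2.90 for the 8 expressed myelin genes through 1.37 for other mature oligodendrocyte genes and 1.01 for newly formed oligodendrocytes to 0.03 for precursors, and neuron and astrocyte lists lie to the right as well.

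Markers of other mature cells of the cerebellum were higher in the same library. For comparison, the 2-fold rule was passed upwards by 16.1% and downwards by 8.67% of all expressed records. The 7 markers of Purkinje cells were all past the 2-fold rule, and their summed FPKM was 8.56 in wild type and 592.3 in knockout. All 5 interneuron markers were higher (sums of 13.2 and 401.6 FPKM), as were 7 of 7 markers of mature granule neurons (57.1 and 405.4 FPKM). All 10 markers of astrocytes and Bergmann glia were at least 2-fold higher, with sums of 505.0 and 2613 FPKM. After centring on the median of all genes 7 of them were, without Aqp4, Slc1a2 and S100b, and from the midpoints of the bounds 8 were. Of 10 microglia and macrophage markers 7 were higher (sums of 299.4 and 614.7 FPKM), and of 8 expressed endothelial markers 3 were (sums over all 9 of 42.7 and 146.5 FPKM). The other 5 expressed endothelial markers stayed within the rule. Ly6c1 (10.2 and 66.5 FPKM) and Slc2a1 (10.3 and 42.5 FPKM) had the largest FPKM differences in the endothelial sum. Through the knockout library alone passed 2 Purkinje, 3 interneuron, 2 granule neuron and 2 microglia markers, all of them at least 2-fold higher. So did 2 endothelial markers, of which 0 were higher by that rule. Of all records that pass that way 55.5% were at least 2-fold higher. Of 8 genes of granule neuron precursors and Hedgehog tumours 5 were lower and 3 within the rule. Gli1 had 89.2 and 9.03 FPKM and Mycn 85.8 and 8.52 FPKM, whereas Ptch1 had 65.1 and 46.5 FPKM, Barhl1 115.2 and 58.1 FPKM (log2 ratio -0.98), and Zic1 74.6 and 99.8 FPKM. In the same comparison 8 of 8 genes of dividing cells were lower (sums of 439.8 and 118.1 FPKM). The 9.91-fold difference of the summed myelin FPKM was smaller than the 69.2-fold difference of the Purkinje sum and larger than the 5.17-fold difference of the astrocyte sum. The part of the tissue composition in the myelin values was not tested. The list of peripheral myelin, which Schwann cells of nerve roots make, summed to 19.4 and 31.8 FPKM over 6 genes, of which 3 were expressed. Pmp2, a lipid-binding protein gene of that myelin, was listed at 0 in wild type and had 0.0194 FPKM in the knockout library. Pmp22, which fibroblasts also express, was the 1 of 6 in that list that was at least 2-fold higher (8.99 and 25.0 FPKM). The other expressed genes of the list had lower values in the knockout library. Ncmap had 7.31 and 5.72 FPKM (log2 ratio -0.31). Egr2 had 2.53 and 0.856 FPKM (log2 ratio -0.93, and -1.02 after centring). The median log2 ratio of the 3 expressed genes was -0.31.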

How the data were processed

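RNA sequencing values of 2 mouse medulloblastoma libraries, 1 per genotype, were used. The authors deposited FPKM per gene, with a lower and an upper bound in FPKM and a status, per the file headers. Cuffdiff 2.1.1 and the build mm10 are named in the submitters' processing notes. Which aligner, annotation and filters were used, and how the bounds arose, is not given in the sources used here. Counts were not used here, so the depth is unknown and no count test was made. Groups came from the genotype labels. From the deposited FPKM the log2 ratio with a pseudocount of 1 FPKM was computed, and a 2-fold rule stood in for a test. A gene with at least 1 FPKM in 1 library was called expressed. Where a symbol had several loci, the locus with the highest mean FPKM was kept. The members and the 17 other gene lists were chosen with earlier results of these data known; 2 genes are not reported here and were left out of these lists. Named genes were the members, Smarca4, from each list up to 4 genes that differed most and by at least 2-fold (the 2 most abundant where fewer than 2 reached it), the neighbours of the members, and the 5 genes nearest to the members' median level. Xist, Anln, Hapln2, Aspa, Gjb1, Klk6, S1pr5, Gal3st1, Bcas1, Olig1, Sox10 and Galnt5 fall outside this rule and were named after their values were seen. The same holds for Pmp2, Egr2, Cntn2, Aqp4, Slc1a2, S100b, Ptch1, Barhl1 and Zic1. Myrf was matched as Gm98 and Ncmap as 1110028C15Rik. Cers2 and Sptbn4 matched no record. File start positions count from 0 and are printed counting from 1. Gene models came from GENCODE M21 and promoter sequences from RefSeq. The calculation was tested on simulated data whose wild-type levels were kept above those of the less abundant members, so their range was not covered. Calculations ran in Python 3.11.15 with pandas 2.3.3 and numpy 2.4.6, and plots in matplotlib 3.10.9.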

Additional observations from a re-analysis of the deposited data

How the results depend on the processing

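The alternatives were other pseudocounts, scalings and filters, the midpoints of the deposited bounds, records of status OK only, and loci summed. Chosen after seeing the data was the restriction to records whose FPKM lies within its bounds in both libraries. No paired analysis was possible because there was 1 library per genotype. The log2 ratio of each member kept its direction under each alternative that gave it a value (records within their bounds left 5 of the 9), and 102 of 104 values kept their side of the 2-fold rule. The 2 exceptions were Opalin with pseudocounts of 0.1 and 0.5 FPKM (log2 ratios 2.42 and 1.24). Filters on level, status or bounds and the summing of loci cannot change the ratio of a gene with a single locus. Those values therefore agree by construction, and a pseudocount cannot reverse a direction. Only the scalings, the centring and the midpoints could have done so. The median log2 ratio of the expressed members was 2.90, moved to 3.55 with a pseudocount of 0.1 FPKM, and to 3.57 among records within their bounds, where 4 of the members remained expressed and 4 were at least 2-fold higher in place of 8. This fall follows from the fewer members kept. With FPKM rescaled to the same sum the median of all expressed symbols was 0.25 in place of 0.09. The median of the genes of newly formed oligodendrocytes lay under 1 in 4 alternatives. With 1 library per genotype no alternative bears on the variation between animals.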

Other observations

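Genes of the node of Ranvier and the paranode, where myelin meets the axon, were partly higher in the knockout library. Among 11 expressed genes 6 lay past the 2-fold rule upwards and 0 downwards (16.1% and 8.67% of all expressed records), with a median log2 ratio of 1.01 (0.92 after centring on the median of all genes, and 0.69 among genes of at least 5 FPKM). Of the 6, Kcna1, Kcna2 and Cntnap2 passed the filter through the knockout library alone, and Cntn2 fell within the rule after that centring (log2 ratios 1.01 and 0.92). Kcna1 and Kcna2, the potassium channels of the juxtaparanode, had 0.394 and 13.97 FPKM and 0.577 and 7.32 FPKM. Cntn1, an adhesion protein of the axon at the paranode, had 14.3 and 54.8 FPKM, and Cntnap2, which anchors the channels, had 0.329 and 3.43 FPKM. Most of these genes are neuronal, and Purkinje cell and interneuron markers were higher in the same library, with summed FPKM of 8.56 and 592.3 and of 13.2 and 401.6. Their part in these values was not tested.

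The neuronal receptors of growth inhibitors in myelin, among them that of Mag, were counted as well. Among 7 genes 1 lay past the rule upwards and 2 downwards (16.1% and 8.67% of all expressed records), with a median log2 ratio of 0.06. Rtn4r, the Nogo receptor gene, had 21.1 and 7.90 FPKM (log2 ratio -1.31). Its relative Rtn4rl1, which passed the filter through the knockout library alone, had 0.867 and 5.04 FPKM (log2 ratio 1.69), and the co-receptor gene Ngfr had 4.66 and 1.47 FPKM (log2 ratio -1.20).

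The 5 genes closest to the median level of the 9 myelin genes in both libraries, by distance on the log2(FPKM + 1) scale among 9117 named genes of at least 5 FPKM in 1 library, were Kcnt1, Gabrb2, Ckmt1, Kcnab1 and Fat2. Kcnt1 had 0.944 and 26.4 FPKM, and Fat2 had 1.05 and 23.0 FPKM. With 2 libraries such a likeness rests on 2 values per gene.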
